A study of Mus musculus with 9 samples.

Results

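The 10 genes described here encode cytosolic heat shock proteins, the co-chaperone Bag3 and the heat shock factor Hsf1, measured by RNA sequencing in neonatal rat ventricular cardiomyocytes (NRVMs). They were chosen by name (*Hsf1*, *Hspa8*, *Hsph1*, *Dnajb1*, *Bag3*, *Hspb1*, *Hspb8*, *Cryab*, *Hsp90ab1* and *Hsp90aa1*), and not by a threshold on their values, and all 10 were listed in each of the 3 deposited tables, which together held 15144 gene symbols. Ventricular cells of Sprague-Dawley rats aged 1 or 2 days were kept in culture for 48 h and infected with adenoviruses at an MOI of 50, and RNA was collected 48 h later. The 3 groups, with 3 libraries each, received LacZ (bacterial β-galactosidase, the control), Nrf1 or Nrf2, and every group carried a viral vector with a CMV promoter and a red fluorescent protein. The coding regions of Nrf1 and Nrf2 came from the mouse, so the groups model overexpression above the genes that the rat cells still had. GEO labels the organism as mouse, whereas the cell labels and the genome build used by the authors are those of the rat.

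Heat shock proteins keep other proteins folded. Hsc70 (encoded by *Hspa8*) binds and releases unfolded stretches, J-domain proteins such as Dnajb1 deliver them, and exchange factors such as Hsph1 and Bag3 reset the cycle, while Hsp90 matures kinases and receptors. Small heat shock proteins (Hspb1, Hspb8 and Cryab) hold unfolding proteins in solution, and in striated muscle Bag3 joins Hspb8 and Hsc70 to clear damaged filamin by autophagy. Hsf1 is the transcription factor that drives many of these genes under proteotoxic stress. Nrf1 and Nrf2 are related transcription factors known for proteasome genes and antioxidant genes.

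The deposited tables give 1 mean of normalized counts per group, and because each mean is a sum of whole reads weighted by the depth of its 3 libraries, the reads of each library could be solved for from the pair of tables in which a group occurs. The 9 libraries held from 7875642 to 11907223 such reads over 15107 genes. Levels of single libraries are given below as reads per 1000000 solved reads (RPM), with the libraries of a group lettered A to C from the deepest by size factor to the shallowest, an order that is not the replicate number of the labels. Levels compare the same gene between libraries and not 1 gene with another, since they were not divided by gene length. Folds are ratios of the deposited group means within 1 table, and their logarithm is called the log2 ratio. Each log2 fold is instead the estimate of limma, run over all genes on the log2 scale of the solved library values plus 1. The words "rose" and "fell" are used where limma gave an adjusted p under 0.05. No source says that the 3 libraries of a group came from separate cultures, so these p-values measure the spread between libraries, which may be technical.

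*Nfe2l2*, which encodes Nrf2, lay between 6830 and 7985 RPM in the Nrf2 libraries, between 368 and 374 in the LacZ libraries and between 289 and 296 in the Nrf1 libraries, with reads of the virus and of the cells' own gene not told apart. The gene that encodes Nrf1 was not analysed here, so the label of the Nrf1 libraries was not checked in this way. Of the 9 cardiomyocyte markers listed, 8 were measured (*Ttn* was not analysed here), and their summed level was 12680 to 14377 RPM in LacZ libraries, 13666 to 13798 in Nrf1 libraries and 14457 to 14781 in Nrf2 libraries. This sum held genes that moved in opposite directions: 2 of the 8 rose and 4 fell with Nrf1, with log2 folds of 0.83 for *Ryr2*, 0.64 for *Actc1*, -1.07 for *Myh7* and -0.96 for *Tnni3*, and 6 rose and 1 fell with Nrf2. Markers of another cell type moved with the groups: all 9 fibroblast markers fell in Nrf1 samples and 8 of 9 fell in Nrf2 samples, and their summed level was 13076 to 13970 RPM in LacZ, 3212 to 3461 in Nrf1 and 6463 to 7015 in Nrf2 libraries. The summed level of 8 leukocyte markers was 173 to 258 in LacZ, 99.5 to 102 in Nrf1 and 91.8 to 102 in Nrf2 libraries, that of 7 endothelial markers was 129 to 137, 95.5 to 105 and 93.5 to 115, and that of 4 smooth muscle markers was 3457 to 4105, 6019 to 6121 and 4715 to 5032. With Nrf1 and with Nrf2 in turn, 7 and 7 leukocyte markers fell and 1 and 0 rose, and 5 and 4 endothelial markers fell and 1 and 1 rose. Of the smooth muscle markers 3 rose and 1 fell with each factor, and with Nrf1 the log2 fold was 0.84 for *Acta2* and -1.01 for *Myh11*. None of the markers of these 4 cell types was at 0 in all libraries. In bulk RNA, fewer cells of a type and less RNA per cell cannot be told apart, and the part that a changed mix of cells had in the results below was not tested.

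In Nrf1 samples, *Hspb1*, *Bag3*, *Hspb8* and *Dnajb1* rose by 1.42 to 1.78-fold over LacZ, and *Hsph1* and *Hsf1* fell. In Nrf2 samples the same 4 genes rose by 1.53 to 1.77-fold, *Cryab* and *Hsp90ab1* rose as well, and *Hsf1* fell. *Cryab*, *Hsp90ab1*, *Hsph1* and *Hspb8* had higher levels in Nrf2 samples when the factors were compared directly. *Hspa8* passed the test in none of the 3 comparisons, and *Hsp90aa1* varied so widely between the libraries of every group that its group means could not be read.

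**Figure D1:**
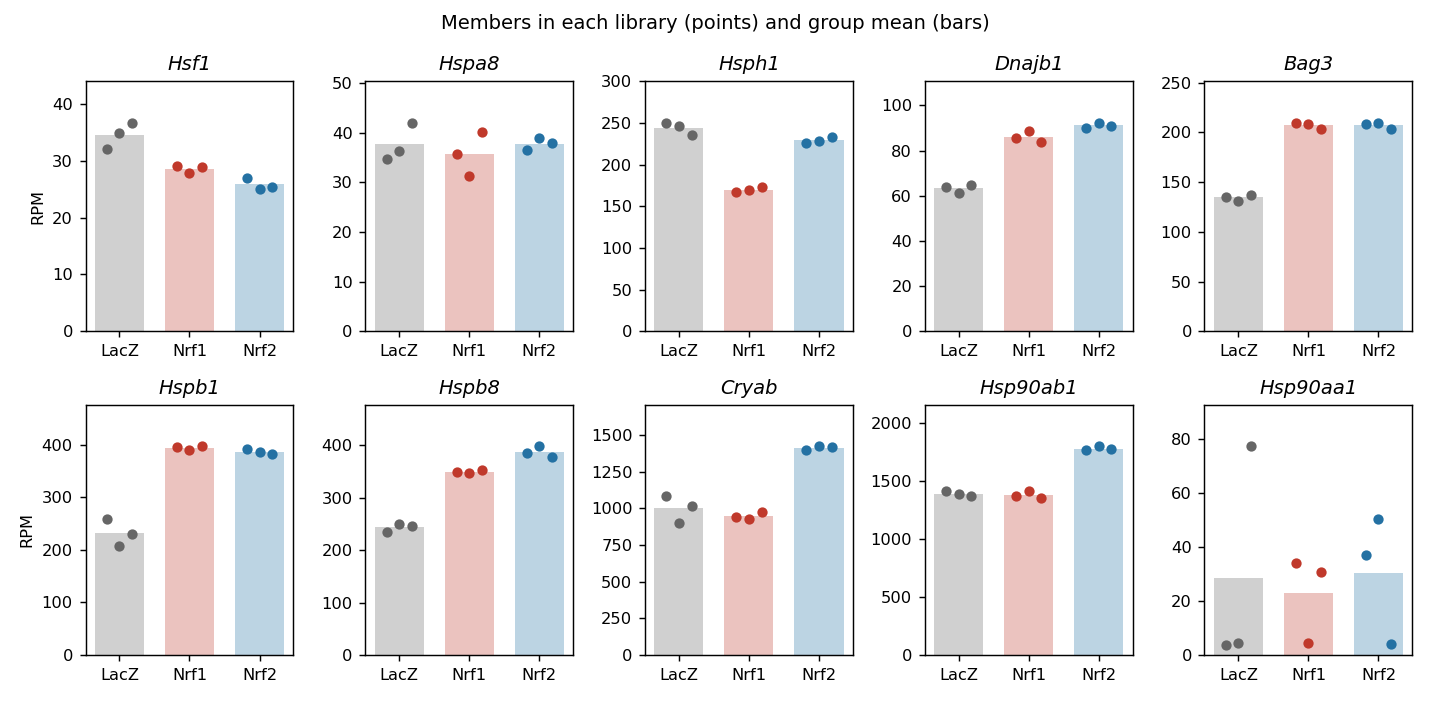
Level of each of the 10 genes in RPM (vertical axes, each from 0, with its own scale) in LacZ, Nrf1 and Nrf2 samples. Each point is 1 library (A, B and C from left to right) and each bar is the mean of 3 libraries. *Bag3*, *Hspb1*, *Hspb8* and *Dnajb1* are higher in all Nrf1 and Nrf2 libraries than in any LacZ library. The share of all genes separated in this way was not computed. The points of *Hsp90aa1* range from 3.74 to 77.3.

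*Bag3*, which links Hsc70 to the small heat shock proteins and to autophagy, had 135, 131 and 137 RPM in LacZ libraries A, B and C. It had 209.7, 209 and 204 in the Nrf1 libraries, and 209, 209 and 203 in the Nrf2 libraries. All 6 libraries with a Nrf factor thus lay above the 3 LacZ libraries, and the Nrf1 and Nrf2 libraries overlapped. The group means differed 1.61-fold between Nrf1 and LacZ (log2 fold 0.69, 95% interval 0.60 to 0.77, adjusted p = 6.21e-10). Between Nrf2 and LacZ they differed 1.63-fold (log2 fold 0.71, interval 0.62 to 0.79, adjusted p = 2.93e-09). In the table for Nrf2 and Nrf1 the log2 fold of *Bag3* was 0.01, with an interval of -0.05 to 0.07 (adjusted p = 0.756), so a difference of more than 0.07 in favour of Nrf2 lay outside that interval.

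*Hspb1*, the gene of the small heat shock protein Hsp27, had the largest ratio of group means of the 10 genes over LacZ in both comparisons. Its level was 258, 208 and 229 RPM in the LacZ libraries, 396, 390.2 and 397 in the Nrf1 libraries and 391.6, 386 and 382 in the Nrf2 libraries. The lowest Nrf1 or Nrf2 library lay far above the highest LacZ library, although the LacZ libraries differed among themselves by up to 1.24-fold and those of each other group by no more than 1.02-fold. *Hspb1* rose 1.78-fold in Nrf1 samples (log2 fold 0.84, interval 0.71 to 0.97, adjusted p = 6.40e-09). It rose 1.77-fold in Nrf2 samples (log2 fold 0.83, interval 0.70 to 0.96, adjusted p = 5.04e-08). The direct log2 fold of Nrf2 over Nrf1 was -0.01 (interval -0.07 to 0.04, adjusted p = 0.644).

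*Hspb8*, the small heat shock protein that works with Bag3, had 234, 249 and 246 RPM in the LacZ libraries. It had 349, 347 and 352 in the Nrf1 libraries and 386, 398 and 378 in the Nrf2 libraries. The 3 groups did not overlap, with LacZ lowest and Nrf2 highest. The rise was 1.5005-fold in Nrf1 samples (log2 fold 0.59, interval 0.51 to 0.66, adjusted p = 8.37e-10) and 1.69-fold in Nrf2 samples (log2 fold 0.76, interval 0.68 to 0.84, adjusted p = 6.25e-10). The direct comparison gave a mean 1.12-fold higher with Nrf2 (log2 fold 0.16, interval 0.11 to 0.22, adjusted p = 4.02e-05). The ratio for Nrf1 was just inside the 1.5-fold cutoff and fell under it when the tables were rescaled. It was also under the cutoff without LacZ library A (log2 ratio 0.564) or without Nrf1 library C (log2 ratio 0.581).

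*Cryab*, which encodes αB-crystallin, an abundant small heat shock protein of heart muscle, separated the Nrf factors. It had 1085, 902 and 1020.1 RPM in the LacZ libraries and 938, 929 and 973 in the Nrf1 libraries. The Nrf2 libraries had 1397, 1424 and 1417. The Nrf2 libraries lay above all others, and the LacZ and Nrf1 libraries overlapped. Compared with LacZ, the log2 fold was -0.01 in Nrf1 samples (interval -0.13 to 0.10, adjusted p = 0.822) and 0.58 in Nrf2 samples (interval 0.47 to 0.70, adjusted p = 5.54e-07), the latter a ratio of 1.49 that was just under the cutoff of 1.5. Without LacZ library B, the lowest of the 3, the log2 fold of Nrf1 was -0.10 and passed the test (adjusted p = 0.00876). *Cryab* was the only member past 1.5-fold in the direct comparison, 1.51-fold higher with Nrf2 than with Nrf1 (log2 fold 0.59, interval 0.55 to 0.64, adjusted p = 8.68e-14). Its ratio was under 1.5 without Nrf1 library A or B (log2 ratios 0.58 and 0.58) and when the means were divided by the summed means (log2 ratio 0.58).

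*Dnajb1*, the heat-inducible J-domain protein Hsp40, had 63.9, 61.1 and 64.9 RPM in the LacZ libraries. The Nrf1 libraries had 85.6, 88.9 and 83.9, and the Nrf2 libraries had 90.03, 92.3 and 91.0. LacZ lay below both other groups, and every Nrf2 library lay above every Nrf1 library. *Dnajb1* rose 1.42-fold in Nrf1 samples (log2 fold 0.51, interval 0.40 to 0.62, adjusted p = 4.22e-07) and 1.53-fold in Nrf2 samples (log2 fold 0.61, interval 0.51 to 0.72, adjusted p = 1.24e-07). The direct log2 fold was 0.10 (adjusted p = 0.0552), and it passed the test when Nrf1 library B was left out (adjusted p = 0.0364) or when genes with low means were kept (adjusted p = 0.0402).

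*Hsph1* encodes Hsp110, which releases ADP from Hsc70 and helps to dissolve aggregates. It had 250.3, 246 and 236 RPM in the LacZ libraries, 167, 169 and 173 in the Nrf1 libraries and 226, 228 and 234 in the Nrf2 libraries. The Nrf1 libraries lay below all others. *Hsph1* fell in Nrf1 samples to 0.726 of the LacZ mean (log2 fold -0.46, interval -0.54 to -0.38, adjusted p = 5.24e-08). In Nrf2 samples the log2 fold over LacZ was -0.01 (interval -0.09 to 0.08, adjusted p = 0.920). The mean was 1.36-fold higher with Nrf2 than with Nrf1 (log2 fold 0.45, interval 0.38 to 0.51, adjusted p = 1.12e-09).

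**Figure D2:**
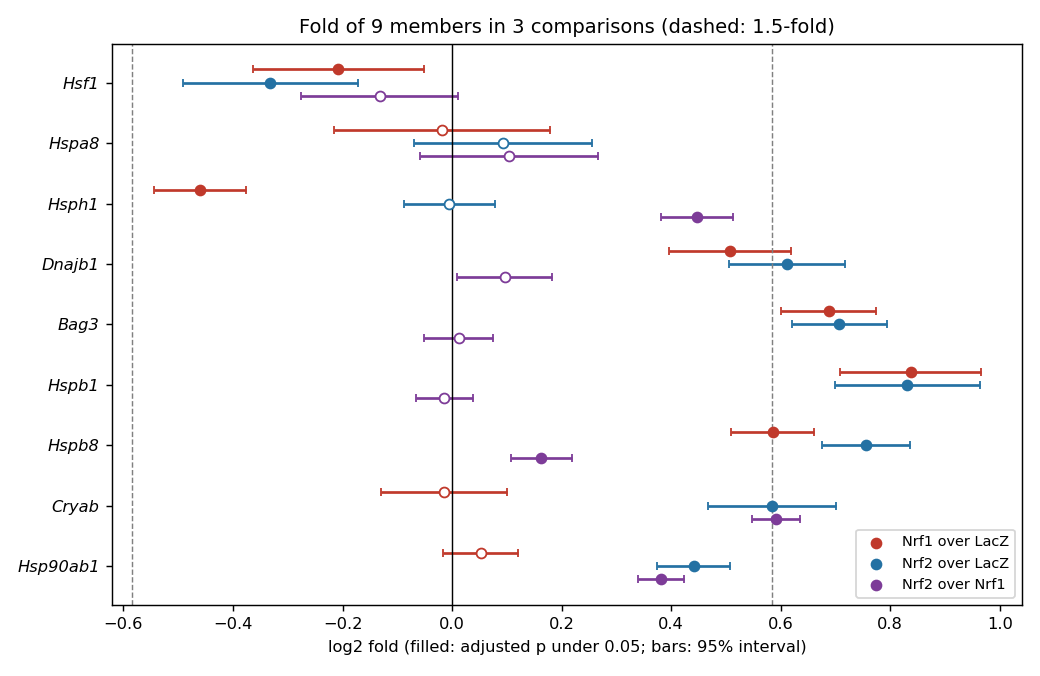
Log2 fold (horizontal axis) of 9 of the 10 genes for Nrf1 over LacZ (red), Nrf2 over LacZ (blue) and Nrf2 over Nrf1 (purple), with 95% intervals from limma; filled points have an adjusted p under 0.05 and dashed lines mark 1.5-fold. *Bag3* and *Hspb1* lie at nearly equal folds over LacZ for both factors, whereas *Cryab*, *Hsp90ab1* and *Hsph1* lie near 0 for 1 factor only; *Hsp90aa1* is left out because its interval reaches from -1.21 to 2.53 in the first comparison.

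*Hsf1* was lower in both Nrf groups than in LacZ. It had 32.1, 34.9 and 36.7 RPM in the LacZ libraries, 29.0, 27.8 and 28.9 in the Nrf1 libraries and 27.0, 25.1 and 25.4 in the Nrf2 libraries. The LacZ libraries lay above all others. *Hsf1* fell to 0.864 of the LacZ mean in Nrf1 samples (log2 fold -0.21, interval -0.36 to -0.05, adjusted p = 0.0205) and to 0.793 in Nrf2 samples (log2 fold -0.33, interval -0.49 to -0.17, adjusted p = 0.00167). The call in Nrf1 samples was lost without LacZ library C (adjusted p = 0.0955) or without Nrf1 library B (adjusted p = 0.0681). The direct log2 fold of Nrf2 over Nrf1 was -0.13 (adjusted p = 0.104), and -0.13 with an adjusted p of 0.0443 when genes with low means were kept. The RNA level of *Hsf1* does not report the activity of the protein, which is controlled largely after translation.

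The Hsp90 genes behaved differently from each other. *Hsp90ab1*, the constitutive isoform, had 1410, 1389 and 1370.4 RPM in the LacZ libraries and 1373, 1414 and 1351 in the Nrf1 libraries. The Nrf2 libraries had 1766, 1797 and 1772, above all other libraries, and LacZ and Nrf1 overlapped. *Hsp90ab1* rose 1.36-fold in Nrf2 samples over LacZ (log2 fold 0.44, interval 0.37 to 0.51, adjusted p = 2.98e-08), while the log2 fold of Nrf1 was 0.05 (interval -0.02 to 0.12, adjusted p = 0.161). In the direct comparison it was 1.30-fold higher in Nrf2 samples (log2 fold 0.38, interval 0.34 to 0.42, adjusted p = 1.72e-11).

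*Hsp90aa1*, the stress-inducible isoform, had 3.74, 4.38 and 77.3 RPM in LacZ libraries A, B and C, which are 35, 36 and 609 reads. It had 34.3, 4.29 and 30.8 in the Nrf1 libraries and 37.0, 50.2 and 4.14 in the Nrf2 libraries. In each group at least 1 library lay near 4 and at least 1 lay above 30, so the highest library exceeded the lowest by 20.7-fold in LacZ, 7.99-fold in Nrf1 and 12.1-fold in Nrf2. Of 8472 genes with an average of at least 10 RPM, *Hsp90aa1* was the only one whose highest library exceeded its lowest by over 5-fold in all 3 groups (with 0.1 added to each level), and 7 genes did so in any group. For the other 9 members the highest library of a group was at most 1.29-fold above the lowest. The ratio of the *Hsp90aa1* means was 0.846 for Nrf1 over LacZ, and its direction rested on single libraries. Without LacZ library C the log2 ratio of the means was 2.57 in place of -0.24, and limma then passed it (log2 fold 2.07, adjusted p = 0.00782). Likewise, leaving out LacZ library C gave a log2 fold of 2.35 for Nrf2 over LacZ (adjusted p = 0.0174), and leaving out Nrf2 library C gave 1.38 for Nrf2 over Nrf1 (adjusted p = 0.0451). With all libraries the log2 folds were 0.66, 0.94 and 0.27 in the 3 comparisons (adjusted p = 0.521, 0.431 and 0.766). For Nrf1 over LacZ this log2 fold had the opposite sign to the log2 ratio of the means.

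**Figure D3:**
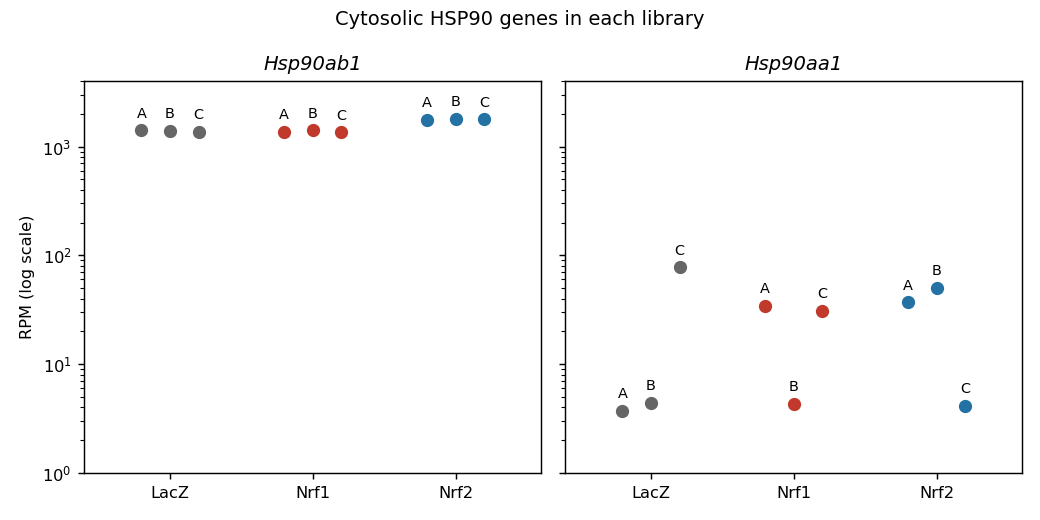
Level in RPM (vertical axis, log scale) of *Hsp90ab1* (left) and *Hsp90aa1* (right) in each library, lettered A to C within its group. The points of *Hsp90ab1* lie within 1.05-fold of each other in every group, and those of *Hsp90aa1* split into libraries near 4 and libraries between 30.8 and 77.3 in all 3 groups.

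*Hspa8*, the constitutive Hsc70 at the centre of the cycle, had 34.8, 36.4 and 42.0 RPM in the LacZ libraries, 35.7, 31.2 and 40.2 in the Nrf1 libraries and 36.6, 38.9 and 37.9 in the Nrf2 libraries. The 3 groups overlapped. Its log2 fold was -0.02 in Nrf1 samples (interval -0.22 to 0.18, adjusted p = 0.871) and 0.09 in Nrf2 samples (interval -0.07 to 0.26, adjusted p = 0.315). In the direct comparison it was 0.10 (adjusted p = 0.260), and 0.19 without Nrf1 library C (adjusted p = 0.0355). *Hspa8* and the Hsp90 genes have close relatives and processed copies in the genome. How the authors treated reads with several matches is not given in the sources used here. The values of *Hspa8*, *Hsp90aa1* and *Hsp90ab1* are uncertain to that extent, and whether such reads shaped them was not tested.

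Counted over the 10 genes, 3 were past 1.5-fold higher in Nrf1 samples and 0 lower, beside 15% and 24.3% of all genes of that table, and beside 11.6% and 11.9% of the genes whose mean reached 100 in a group, as that of every member did. By limma 4 rose and 2 fell, beside 34.3% and 32.5% of the genes tested, so the share of members that changed, 6 of 10, was near that of all genes. The genes tested reached down to a mean of 10, and no limma share was computed for those whose mean reached 100. In Nrf2 samples 4 genes were past 1.5-fold higher and 0 lower, beside 15.6% and 15.5% of all genes and 7.67% and 6.65% of the genes at that level. By limma 6 rose and 1 fell, beside 28.7% and 26%. Nrf2 over Nrf1 had 1 member past 1.5-fold higher and 0 lower, beside 20.1% and 8.72% (7.50% and 4.24% at that level), and by limma 4 were higher and 0 lower, beside 28.9% and 29.8%. The median log2 ratio of the 10 genes was 0.02, 0.51 and 0.13 in the 3 comparisons, and that of all genes was -0.03, -0.01 and 0.01. For the genes whose mean reached 100 in a group it was 0.05, 0.01 and -0.03. The counts and medians of the 10 genes include *Hsp90aa1*, whose group means could not be read. Both comparisons with LacZ use the same LacZ libraries and are not independent of each other.

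Together the 10 genes took 3262 to 3507 RPM in LacZ libraries, 3610 to 3633 in Nrf1 libraries and 4546 to 4648 in Nrf2 libraries. As a share of the summed group means this was 0.337% in LacZ, 0.358% in Nrf1 and 0.455% in Nrf2 samples. *Hsp90ab1* and *Cryab* gave most of these reads. Both lay above LacZ in the Nrf2 libraries only, whereas the sum lay above every LacZ library in the Nrf1 libraries too.

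The other small heat shock proteins contained the widest difference between the Nrf factors in the chaperone lists. *Hspb6* (Hsp20), a small heat shock protein of muscle, had 219, 185 and 216 RPM in LacZ, 95.6, 94.1 and 95.1 in Nrf1 and 277, 277 and 268 in Nrf2 libraries, with no overlap between groups. It fell in Nrf1 samples (log2 fold -1.05, adjusted p = 3.28e-10) and rose in Nrf2 samples (log2 fold 0.50, adjusted p = 5.27e-06), and the direct log2 fold was 1.54 (adjusted p = 5.90e-17). *Hspb7*, a cardiac small heat shock protein that binds filamin C, rose with both factors, from 525 to 564 RPM in LacZ to 974 to 992 in Nrf1 and 1027 to 1087 in Nrf2 libraries (log2 folds 0.91 and 1.03, adjusted p = 6.75e-12 and 3.39e-11). Of the 4 genes of this list that could be tested, 3 rose and 1 fell with Nrf1, and 3 rose with Nrf2. Of all genes tested, 34.3% rose and 32.5% fell with Nrf1, and 28.7% rose and 26% fell with Nrf2. These shares also stand beside the counts of the lists below. *Cryaa*, the lens crystallin, was chosen for mention after its values were seen, and was listed at 0 in LacZ and had a mean under 1 in the other groups.

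Among the other exchange factors, *Bag2*, an inhibitor of the ubiquitin ligase Chip, rose with both factors, with log2 folds of 0.60 in Nrf1 and 0.68 in Nrf2 samples (adjusted p = 5.49e-08 and 1.20e-07). In all, 4 of 5 tested genes of this list rose with Nrf1 and 3 of 5 with Nrf2, and 0 fell. Of the 8 measured partners of Bag3 in autophagy, *Sqstm1*, which encodes the autophagy receptor p62 and is a known target of Nrf2, changed most: it had 507 to 533 RPM in LacZ, 963 to 1017 in Nrf1 and 1135 to 1226 in Nrf2 libraries (log2 folds 0.99 and 1.26, adjusted p = 9.32e-13 and 1.73e-12). The counts for these partners were 5 that rose and 1 that fell with Nrf1, and 3 that rose and 1 that fell with Nrf2.

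Of 10 other cytosolic J-domain proteins, 7 rose and 0 fell with Nrf1, and 7 rose and 1 fell with Nrf2. The largest fold was that of *Dnajb4* in Nrf2 samples (log2 fold 0.59, adjusted p = 6.02e-09). Of 9 other cytosolic Hsp70 and Hsp110 genes, 1 rose and 5 fell with Nrf1, and 1 rose and 4 fell with Nrf2. *Hspa4l*, a relative of *Hsph1*, fell in Nrf1 samples (log2 fold -0.65, adjusted p = 2.66e-05), as did *Hspa12a* (log2 fold -0.63, adjusted p = 0.000253), and *Hspa12b* fell in Nrf2 samples (log2 fold -0.58, adjusted p = 0.00162). *Hspa2* had a higher level with Nrf2 than with Nrf1 (log2 fold 0.73, adjusted p = 2.12e-09).

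Of 15 co-chaperones of Hsp90, 10 rose and 3 fell with Nrf1, beside 34.3% and 32.5% of all genes tested, and 7 rose and 2 fell with Nrf2, beside 28.7% and 26%. Neither this list nor the other chaperone lists were tested against these shares. *Ahsa1*, which stimulates the ATPase of Hsp90, rose most with Nrf1 (log2 fold 0.72, adjusted p = 1.995e-09), and *St13*, the Hsc70-interacting protein Hip, rose most with Nrf2 (log2 fold 0.83, adjusted p = 1.20e-07). In the direct comparison 2 of these 15 were higher and 8 lower in Nrf2 samples. Unlike *Hsf1*, the related factor *Hsf2*, chosen after its values were seen, rose with both factors (log2 folds 0.41 and 0.41, adjusted p = 6.62e-06 and 8.69e-06). All 3 measured genes of that list rose with Nrf1 and 1 of 3 rose with Nrf2.

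Outside the cytosolic Hsp70 and Hsp90 systems, 9 of 12 measured subunits of the TRiC chaperonin and prefoldin rose with Nrf1 and 10 of 12 with Nrf2, and 0 fell. *Cct8*, a TRiC subunit, rose most (log2 folds 0.68 and 0.77, adjusted p = 4.16e-10 and 8.74e-10). Of 9 mitochondrial chaperones 7 rose and 1 fell with Nrf1, and 5 rose and 0 fell with Nrf2. Of 16 chaperones of the endoplasmic reticulum 3 rose and 11 fell with Nrf1, with *Sdf2l1* (log2 fold -0.72, adjusted p = 2.27e-07) and *Dnajb11* (log2 fold -0.67, adjusted p = 2.63e-09) past 1.5-fold. With Nrf2, 3 of them rose, *Dnajb9* past 1.5-fold (log2 fold 0.61, adjusted p = 2.69e-08), and 5 fell. The shares of all genes tested that rose and fell were 34.3% and 32.5% with Nrf1, and 28.7% and 26% with Nrf2. For scale, all 33 subunits of the 26S proteasome rose with Nrf1 and 30 with Nrf2, with median log2 ratios of 1.10 and 0.31.

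**Figure D4:**
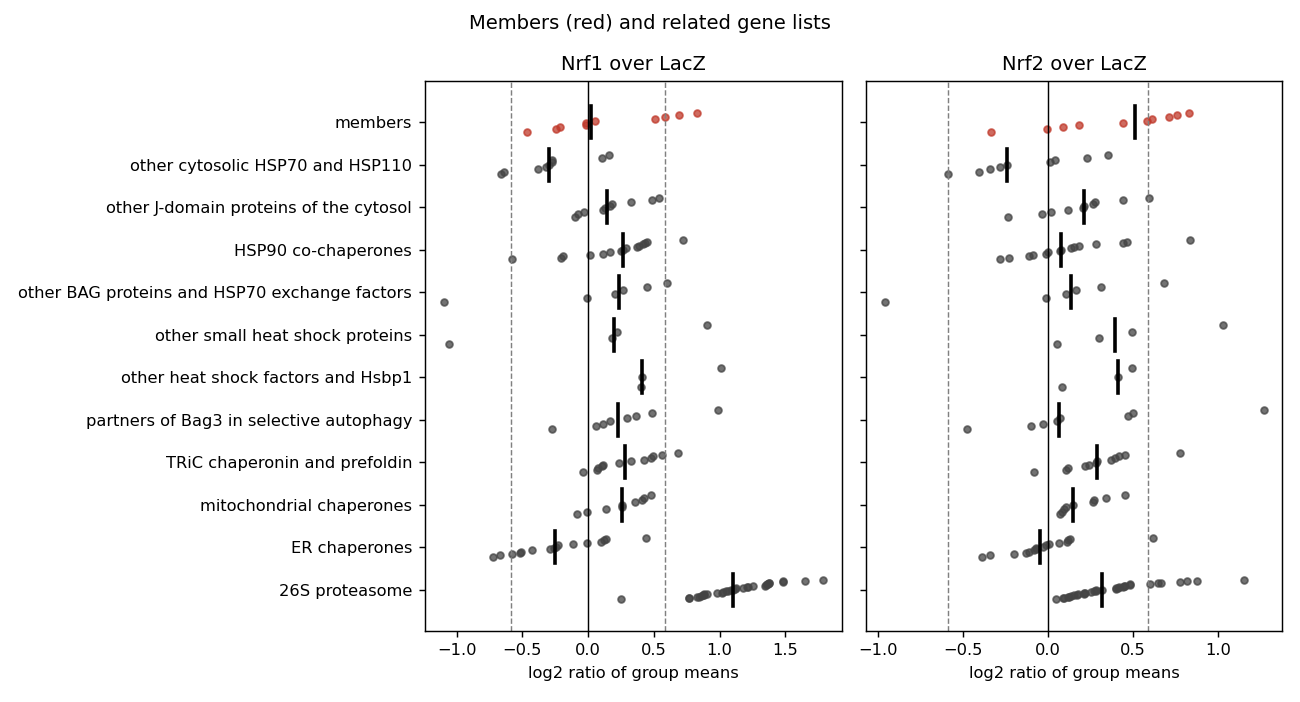
Log2 ratio of the group means (horizontal axes) for Nrf1 over LacZ (left) and Nrf2 over LacZ (right). Each point is 1 gene, red for the 10 members and grey for the related lists; black bars are list medians, dashed lines mark 1.5-fold, and *Cryaa*, listed at 0 in LacZ, is not drawn. The members' median, with *Hsp90aa1* included, is 0.02 on the left and 0.51 on the right, and that of the 26S proteasome is 1.10 and 0.31.

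The pattern of *Hspb1*, the member with the largest fold for Nrf1, was compared with that of 7829 genes whose mean reached 100 in each group, by the distance between the pairs of log2 ratios over LacZ. The 5 nearest genes outside the lists were *Xk*, *Car13*, *Nav3*, *Skp1* and *Pfkp*, at distances of 0.04 to 0.06. Their log2 ratios lay between 0.78 and 0.87 for Nrf1 and between 0.77 and 0.87 for Nrf2, beside 0.83 and 0.83 for *Hspb1*. The likeness rests on 2 ratios that share their LacZ libraries.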

How the data were processed

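RNA of NRVMs was sequenced in 9 libraries, 3 for each of LacZ, Nrf1 and Nrf2. Per the paper's methods and the submitters' processing notes, the authors ran FastQC 0.11.4 on the single-end reads, used HISAT2 2.0.4 for alignment to the build Rnor_6.0, dropped duplicates through SAMtools 0.1.18 and obtained gene counts from featureCounts 1.6.0. Removal of duplicates can lower the counts of abundant genes. The signal the authors deposited, in 3 tables of 1 pair of groups each, is the mean over a group's libraries of counts divided by size factors. The fold changes and p-values of the authors' own comparisons in these tables were not used, and 0 columns of single samples were left unused. Rat sequences were not used here.

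As planned for group means, the main values are ratios of the deposited means within a table, called at 1.5-fold. The means were then found to be sums of whole reads in 3 recurring steps, 1 for each library. For genes in both tables of a group a single set of whole reads fitted within the printed digits for 14678 of 14679 genes in LacZ, 14579 of 14579 in Nrf1 and 14746 of 14746 in Nrf2. In simulated data 100% of the solved reads were right. These data were built with the same steps and printed digits, and only genes in both tables with a single solution were scored. The simulation thus checked the solving alone. It could not check whether the deposited means are built from such steps, nor the genes solved from 1 table. Values per library and the test on them are therefore derived, were chosen after seeing the data, and rest on this solution. limma 3.58.1 in R 4.3.3 (eBayes with trend) was run for each pair of groups on log2(solved normalized value + 1), for genes whose mean reached 10 in either of the groups (11440, 11617 and 11501 genes), with Benjamini-Hochberg adjustment over all of them. On simulated data for Nrf1 over LacZ with 11258 genes, it called 193 of 200 genes changed by 1 on the log2 scale and 4 of 11058 unchanged genes. The simulation used the same spread setting for every gene and few changed genes, whereas limma called 7647 of 11440 genes in the data. Its rates therefore need not hold for the p-values given here. The log2(value + 1) scale slightly understates folds of low genes.

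The 10 members and the 16 other lists, with 166 further genes, were chosen with earlier results of these data known. Named were all members, up to 4 genes per list and comparison past 1.5-fold whose mean reached 100, and the 5 genes nearest in pattern; only some of those of the marker and proteasome lists are given, and genes named outside the rule are said to be so. Alternatives were other fold cutoffs, rescaled means, a pseudocount, minimum means, and for limma other pseudocounts, no filter, scaling by total reads and leaving out each library.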

Additional observations from a re-analysis of the deposited data

Results flagged for a closer look

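The effects of Nrf1 and Nrf2 differed for 4 of the 10 genes by the direct limma test between the Nrf2 and Nrf1 libraries, which does not use the LacZ libraries. The log2 fold of Nrf2 over Nrf1 was 0.59 for *Cryab* (adjusted p = 8.68e-14), 0.45 for *Hsph1* (adjusted p = 1.12e-09), 0.38 for *Hsp90ab1* (adjusted p = 1.72e-11) and 0.16 for *Hspb8* (adjusted p = 4.02e-05). For all 4 genes each Nrf2 library lay above each Nrf1 library, but they were picked by a test on the same values. The libraries of *Dnajb1* were separated in the same direction and those of *Hsf1* in the other, without passing the test. The share of all genes separated in this way was not computed. Of all 11501 genes tested, 6750 passed the direct limma test, with 28.9% higher and 29.8% lower in Nrf2 samples. The members thus did not differ more often than all genes did. *Cryab* and *Hsp90ab1* did not pass the test in Nrf1 samples against LacZ, *Hsph1* did not pass it in Nrf2 samples, and *Hspb8* passed it in both.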

How the results depend on the processing

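At a cutoff of 2-fold, 0 members were past it in any comparison. At a looser cutoff, 1 mean 25% above the other, 4 were higher with Nrf1, 6 with Nrf2 and 4 for Nrf2 over Nrf1. At that cutoff 1 was lower with Nrf1 and 1 with Nrf2. Dividing by the summed means left 2 members past 1.5-fold higher with Nrf1, 3 with Nrf2 and 0 in the direct comparison. Leaving out 1 library moved the members past 1.5-fold higher to 2 to 4 for Nrf1, 3 to 6 for Nrf2 and 0 to 2 for Nrf2 over Nrf1, and those lower to 0 to 1 for Nrf1; the 1 that became lower without LacZ library A or B or Nrf1 library A was *Hsp90aa1*. For Nrf2 over Nrf1, *Cryab* was under the cutoff without Nrf1 library A or B, and *Hsp90aa1* was past it without Nrf1 library A or C or Nrf2 library C. For the 16 other lists, 43, 17 and 18 genes were past 1.5-fold higher and 29, 19 and 25 lower; at 2-fold 24, 4 and 7 were higher and 10 and 6 lower for the last 2 comparisons, and at the looser cutoff 68, 44 and 31 were higher and 47 lower for Nrf2 over Nrf1. Leaving out 1 library gave 42 to 44, 15 to 18 and 16 to 20 higher and 29 to 30, 18 to 20 and 25 to 28 lower. Among genes whose mean reached 100 in a group, 11.9% were past 1.5-fold lower with Nrf1, 7.67% higher and 6.65% lower with Nrf2, and 7.50% higher and 4.24% lower for Nrf2 over Nrf1; where it reached 10 the shares were 9.78% higher for Nrf2, and 12.3% higher and 5.16% lower for Nrf2 over Nrf1. The causes of these shifts were not tested, apart from the cutoffs themselves.

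Of 300 limma results for single members under alternatives, 290 stayed on the same side of the threshold, and the 10 others, for *Hsp90aa1*, *Hsf1*, *Cryab*, *Hspa8* and *Dnajb1*, are given with those genes. Re-centring on the median gene shifted log2 ratios by at most 0.05. No paired analysis was possible because the deposited columns are group means and the solved library values carry no replicate number. The edgeR and DESeq2 fits, planned for tables with counts per sample, were not run on the solved reads, for which limma was used. *Hsf1* and *Hspa8* rested on 247 to 440 solved reads per library, and whether depth limited their calls was not tested.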
